A study of Mus musculus with 6 samples.

Results

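Immediate early genes are genes whose transcription starts within minutes of a stimulus without new protein synthesis. The 10 examined here were taken by name, as the rows of the deposited table whose gene symbol is Fos, Fosb, Jun, Junb, Egr1, Ier2, Nr4a1, Npas4, Arc or Dusp1. All 10 were found among 55450 genes, and their levels were compared between retinas of Myrf-kd and WT mice. Of the 10 genes, 8 reached the level required for testing, a mean of at least 1 FPKM (fragments per kilobase of transcript, scaled to sequencing depth) over the 6 libraries. Fosb and Arc lay below it and are given as values only.

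Immediate early genes link short signals to lasting changes in transcription. Calcium entry and growth factor receptors activate MAP kinases and calcium-dependent kinases, which switch on the resident factors SRF with its ternary complex partners and CREB at the promoters of these genes. Fos and Jun family proteins pair to form the transcription factor AP-1, and Egr1 and Nr4a1 proteins bind sites of their own. Npas4 and Arc are induced mainly in excited neurons, and Dusp1 encodes a phosphatase that turns MAP kinases off again. In retina, light and handling of the tissue induce Fos and Egr1, Egr1 (called ZENK in birds) has been tied to signals for eye growth in amacrine cells of chicks, and Jun and Atf3 are known for their induction in injured retinal ganglion cells.

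The libraries came from whole retina of C57BL/6 mice aged 8 weeks. The 3 samples named Myrf-kd came from mice with 1 altered copy of Myrf (Myrf +/−), and the 3 WT samples came from wild-type mice. The Myrf protein is a transcription factor that is cut free from a membrane and is known for its role in myelin-forming cells. The labels do not say how the Myrf copy was altered, at what hour or under which light the retinas were taken, or whether the samples are separate animals, so p-values cover only the spread among the deposited samples, which may be technical in part. The deposited counts summed to between 50695091 and 70298511 units per library, with about 4 units per fragment. Myrf was listed at 0.279, 0.382 and 0.351 FPKM in the Myrf-kd libraries 1, 2 and 3, against 0.359, 0.397 and 0.463 FPKM in the WT libraries 1, 2 and 3. Those groups overlapped, on 45 to 80 fragments per library, and the Myrf level therefore does not check the labels. Myrf-kd 3 stood apart from the rest, at 43.8 on a first principal component that held 28.9% of the variance, against −17.3 to 10.8 for the other libraries. Judged by Xist and by Y-linked genes, 1 library of each genotype was female, Myrf-kd 3 and WT 3. The sum of 9 rod genes was 33537 to 36518 CPM (counts scaled to a common library size by TMM) in Myrf-kd libraries and 37566 to 55401 CPM in WT libraries, so the RNA is that of tissue with photoreceptors. In RNA of whole tissue, fewer cells of a type and less RNA per cell cannot be told apart.

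The promoters of 7 of the 10 genes were matched by symbol in RefSeq (GRCm38.p6). Egr1, Ier2 and Arc are named only. The 250 bases before the RefSeq start of Fos, Nr4a1, Npas4, Dusp1 and Jun are shown because Fos, Nr4a1 and Npas4 shared a pattern over the libraries that Jun did not follow, and because Dusp1 holds a full CREB site. They lie at chr12:85473640-85473889 (plus strand), chr15:101266596-101266845 (plus strand), chr19:4989972-4990221 (minus strand), chr17:26508473-26508722 (minus strand) and chr4:95052223-95052472 (minus strand). The RefSeq start is not always the edge of the gene's span in the deposited table: the windows of Nr4a1, Npas4 and Dusp1 lie inside the spans given below, and those of Fos and Jun lie just before them. Each is written 5′ to 3′ on the gene's strand. Capitals mark the CREB core motif TGACG on either strand, and in Jun the AP-1-like motif TGACATCA.
Fos: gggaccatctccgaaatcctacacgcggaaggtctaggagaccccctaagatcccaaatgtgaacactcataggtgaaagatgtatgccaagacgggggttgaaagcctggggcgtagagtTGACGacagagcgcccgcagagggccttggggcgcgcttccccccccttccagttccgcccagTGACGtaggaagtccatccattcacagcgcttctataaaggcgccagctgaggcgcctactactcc
Nr4a1: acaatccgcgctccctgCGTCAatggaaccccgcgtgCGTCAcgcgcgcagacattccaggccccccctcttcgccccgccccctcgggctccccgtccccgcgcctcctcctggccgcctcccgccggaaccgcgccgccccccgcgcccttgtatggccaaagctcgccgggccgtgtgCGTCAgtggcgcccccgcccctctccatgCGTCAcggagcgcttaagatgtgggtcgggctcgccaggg
Npas4: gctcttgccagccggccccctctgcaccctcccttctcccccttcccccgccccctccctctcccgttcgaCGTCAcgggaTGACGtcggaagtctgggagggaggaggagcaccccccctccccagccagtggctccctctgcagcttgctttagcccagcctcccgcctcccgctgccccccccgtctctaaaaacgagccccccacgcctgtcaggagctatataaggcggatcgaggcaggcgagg
Dusp1: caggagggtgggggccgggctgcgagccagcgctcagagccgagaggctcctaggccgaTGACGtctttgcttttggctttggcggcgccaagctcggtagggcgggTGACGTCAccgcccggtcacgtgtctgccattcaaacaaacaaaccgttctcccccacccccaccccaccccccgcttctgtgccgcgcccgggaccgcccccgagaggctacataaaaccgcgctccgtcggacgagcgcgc
Jun: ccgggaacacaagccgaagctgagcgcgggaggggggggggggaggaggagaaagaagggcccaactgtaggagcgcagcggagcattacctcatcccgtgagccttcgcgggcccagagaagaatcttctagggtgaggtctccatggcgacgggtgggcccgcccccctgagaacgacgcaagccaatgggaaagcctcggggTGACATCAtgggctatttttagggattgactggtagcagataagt

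The core TGACG, searched on both strands, occurred in all these windows except that of Jun. Fos held 2 matches, Nr4a1 held 4, Npas4 held 2 and Dusp1 held 3, and in Fosb and Junb 1 match each was found. Over all 32851 RefSeq promoter windows of this length, 17.8% held it. The full CREB site TGACGTCA, which contains the core on both strands, was found in Dusp1 and in 1.55% of all windows. TGACATCA was found in Jun and in 2.93% of all windows. The EGR motif GCGNGGGCG was found in Fosb and Nr4a1 and in 4.70% of all windows, and is not capitalised above. Neither the AP-1 motif TGANTCA (6.75% of all windows) nor the CArG box of SRF (1.47%) occurred in the 7 windows. Bases further upstream were not searched, and Egr1, Ier2 and Arc had no window. The genes therefore cannot be said to lack these motifs. A match describes letters and not a bound site, and no binding was measured.

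**Figure D1:**
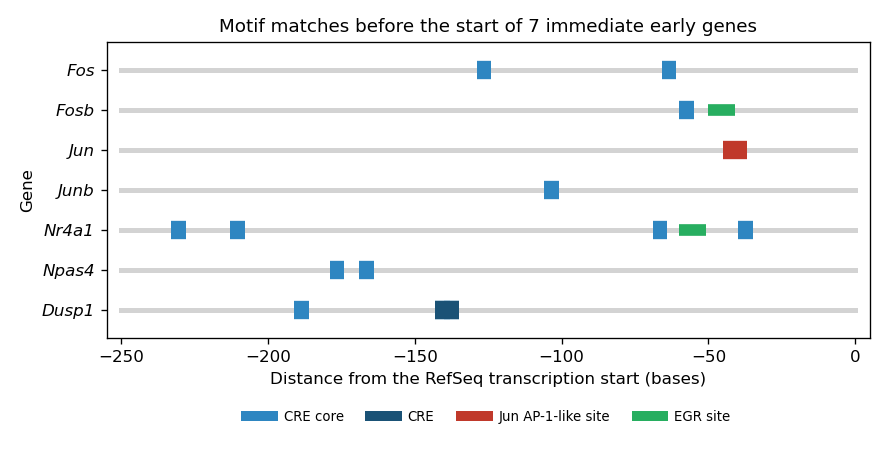
Positions of motif matches in the 250 bases before the RefSeq start of the 7 genes with a promoter entry, in bases from the start; grey lines are the windows and coloured blocks the matches (CRE is the full CREB site and CRE core its core). Jun holds the AP-1-like motif and no CREB core, while the other 6 genes hold 1 to 4 cores.

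Between Myrf-kd and WT retinas, 0 of the 8 tested genes passed an adjusted p of 0.05. The test was the quasi-likelihood test of edgeR with adjustment after Benjamini and Hochberg. This result does not show that levels were unchanged, because several of the intervals given below are wide. Over all 13673 genes tested, 0.0439% passed (6 genes), 0.0293% with a higher and 0.0146% with a lower level in Myrf-kd. The estimates split by gene. Fos, Npas4, Nr4a1, Egr1 and Ier2 had higher estimates in Myrf-kd, and Jun, Junb and Dusp1 lower ones (5 of 8 higher, beside 51.0% of all genes tested). Jun alone of the 8 reached an unadjusted p under 0.05 by edgeR, beside 7.49% of all genes tested. Without WT 1 that count was 4 of the 8, while over all genes it rose from 1024 to 1187. Jun was also the only one of the 10 genes whose groups did not overlap, beside 14.6% of all genes tested. DESeq2 called 1 of the 8 genes, Jun, beside 0.388% of all genes, and limma on log2(FPKM + 1) called 0. The median log2 fold change was 0.24 over the 8 genes and 0.004 over all genes tested. Without Myrf-kd 3 the median over the 8 became −0.10, and 3 of the 8 estimates were positive.

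**Figure D2:**
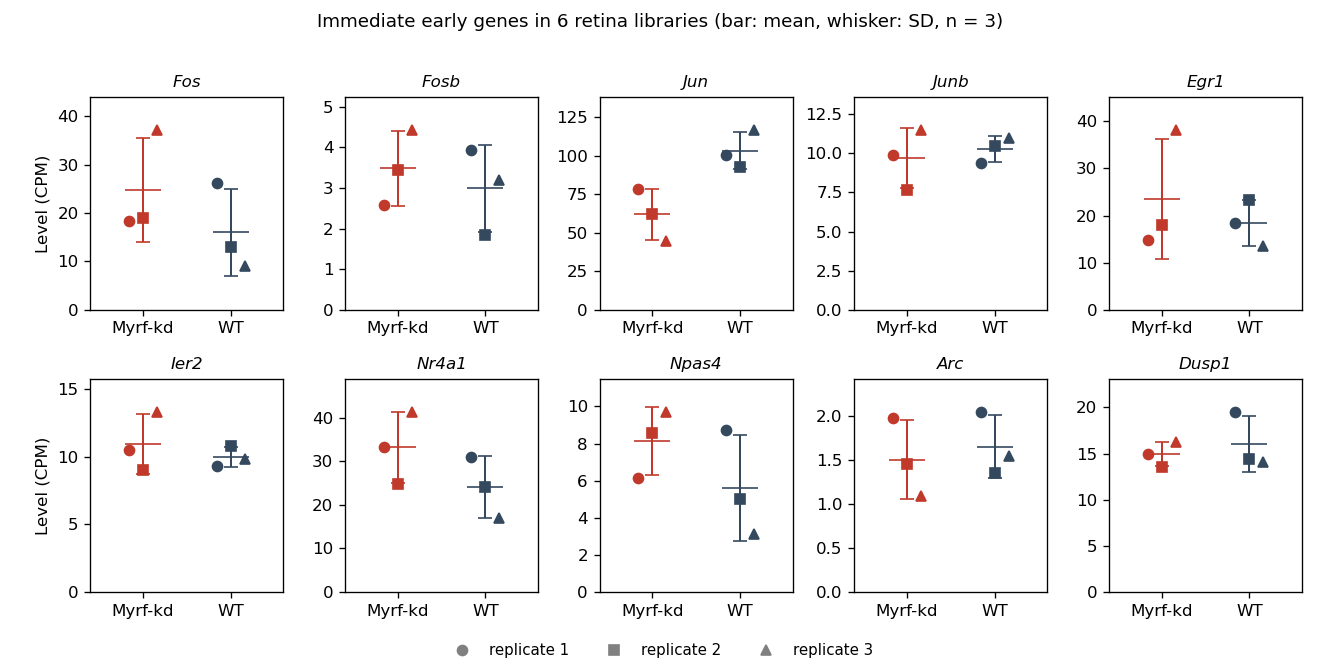
Level of each gene in CPM (vertical axes from 0) in the Myrf-kd libraries (left, red) and the WT libraries (right, blue); symbols are the replicates, bars the mean and whiskers the SD of 3 libraries. Jun is the gene whose groups are apart, with Myrf-kd at 44.9 to 78.5 CPM and WT at 93.1 to 117 CPM, and the triangle of Myrf-kd is the highest point in 7 of the 10 panels.

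Of the Fos family, Fos (ENSMUSG00000021250, chromosome 12, 85473890 to 85477273, plus strand, GRCm38) encodes the partner that gives AP-1 its strong activity. It was at 18.3, 19.0 and 37.2 CPM in the Myrf-kd libraries 1, 2 and 3, against 26.2, 12.9 and 9.09 CPM in the WT libraries 1, 2 and 3. Myrf-kd 3 was the highest and WT 3 the lowest, 4.10-fold apart, and WT 1 lay above Myrf-kd 1 and 2, so the groups overlapped. The means were 24.9 ± 10.7 CPM in Myrf-kd, against 16.1 ± 8.997 CPM in WT (SD, n = 3 each), a fitted ratio of 1.54 with a 95% interval from 0.743 to 3.21 (edgeR adjusted p = 0.741). Without Myrf-kd 3 the log2 fold change of 0.63 became 0.21, and without WT 1 it was 1.177.

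Fosb (ENSMUSG00000003545, chromosome 7, 19302696 to 19310051, minus strand) encodes a relative of Fos whose shortened form builds up under repeated stimulation. It was at 0.347, 0.471 and 0.607 FPKM in the Myrf-kd libraries 1, 2 and 3, against 0.544, 0.242 and 0.427 FPKM in the WT libraries 1, 2 and 3, on 23 to 75 fragments per library. Myrf-kd 3 was again the highest library, WT 2 was the lowest, and the groups overlapped.

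Jun (ENSMUSG00000052684, chromosome 4, 95049034 to 95052222, minus strand), a gene with 1 exon, encodes the central AP-1 subunit and the target of the stress kinase JNK. It was at 78.5, 62.4 and 44.9 CPM in the Myrf-kd libraries 1, 2 and 3, against 100.3, 93.1 and 117 CPM in the WT libraries 1, 2 and 3. Every Myrf-kd library lay below every WT library, and Myrf-kd 3, the highest library for Fos, was the lowest for Jun. The means were 61.9 ± 16.8 CPM in Myrf-kd, against 103.5 ± 12.2 CPM in WT (SD, n = 3 each). The fitted ratio was 0.599 with a 95% interval from 0.431 to 0.832, a log2 fold change of −0.74 ± 0.20 (SE). By edgeR the unadjusted p was 0.00796 and the adjusted p 0.666, so Jun did not pass over all genes. With sex as a covariate the log2 fold change was −0.76. The 15 alternatives gave Jun log2 fold changes of −0.95 to −0.55 and adjusted p-values of 0.0394 to 0.922, and Jun passed in 1 of them, the DESeq2 test. The antisense gene Junos shares 232 exonic bases with Jun and was listed at 7 to 56 units per library, against 3048 to 8002 units for Jun.

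For Jun, as for the sum of 8 markers of cornea and surface epithelium, the Myrf-kd libraries lay below the WT libraries. All 8 were detected, and their sum was 1.46 to 6.52 CPM in Myrf-kd, against 15.0 to 24.3 CPM in WT. Of these 8 genes 3 were tested, all with lower estimates. By edgeR 0 of them passed, and 3 reached an unadjusted p under 0.05, beside 7.49% of all genes tested. The level for testing is a mean over the 6 libraries, which these genes may have reached through WT alone. Their count is therefore not separate support for the difference in the sum. The rod sum did not overlap either, as given above, but its 9 genes had a median log2 fold change of −0.05, with 2 higher and 7 lower estimates, and 0 passed by edgeR (2 at an unadjusted p under 0.05, 1 in each direction). The sums of the ganglion cell genes (1036 to 1077 CPM in Myrf-kd, 1030 to 1118 CPM in WT), Mueller glia genes (4683 to 5025 CPM in Myrf-kd, 4724 to 5237 CPM in WT) and microglia genes (54.0 to 60.1 CPM in Myrf-kd, 56.9 to 58.9 CPM in WT) overlapped. No gene of these lists was at 0 in every library. The part of these cells in the Jun difference was not tested.

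Junb (ENSMUSG00000052837, chromosome 8, 84974484 to 84978718, minus strand) encodes the Jun relative that often restrains Jun. It was at 9.89, 7.69 and 11.5 CPM in the Myrf-kd libraries 1, 2 and 3, against 9.38, 10.5 and 11.01 CPM in the WT libraries 1, 2 and 3, so the groups overlapped, with Myrf-kd 2 lowest and Myrf-kd 3 highest. The fitted ratio was 0.942 with a 95% interval from 0.711 to 1.25 (edgeR adjusted p = 0.909). Its exons share 173 bases with Prdx2 on the opposite strand, which was listed at 6467 to 9408 units per library against 482 to 781 for Junb, and reads in those bases cannot be told apart.

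Egr1 (ENSMUSG00000038418, chromosome 18, 34859823 to 34864984, plus strand) encodes a zinc finger activator of growth and plasticity genes. It was at 14.7, 17.9 and 38.2 CPM in the Myrf-kd libraries 1, 2 and 3, against 18.4, 23.3 and 13.6 CPM in the WT libraries 1, 2 and 3. Myrf-kd 3 lay 2.59-fold above Myrf-kd 1, while Myrf-kd 1 and Myrf-kd 2 lay within the WT range. The means were 23.6 ± 12.7 CPM in Myrf-kd, against 18.5 ± 4.85 CPM in WT (SD, n = 3 each), a fitted ratio of 1.28 with a 95% interval from 0.684 to 2.39 (edgeR adjusted p = 0.813). Without Myrf-kd 3 the log2 fold change of 0.36 turned to −0.18, so its direction rested on that library. The other Egr genes were too low to test. Egr3 was listed at 0.0898, 0.136 and 0.454 FPKM in the Myrf-kd libraries 1, 2 and 3, against 0.166, 0.152 and 0.0956 FPKM in the WT libraries 1, 2 and 3. Egr4 was listed at 0.0001 (no signal), 0.122 and 0.331 FPKM in the Myrf-kd libraries, against 0.0588, 0.116 and 0.108 FPKM in WT. Like Egr1, both were highest in Myrf-kd 3. Egr2 was listed at no more than 0.0308 FPKM in Myrf-kd, against 0.0520 FPKM in WT.

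Nr4a1 (ENSMUSG00000023034, chromosome 15, 101254269 to 101274795, plus strand) encodes an orphan nuclear receptor also called Nur77. It was at 33.3, 24.9 and 41.3 CPM in the Myrf-kd libraries 1, 2 and 3, against 31.1, 24.2 and 17.0 CPM in the WT libraries 1, 2 and 3. Myrf-kd 3 was the highest and WT 3 the lowest, and the groups overlapped. The means were 33.2 ± 8.22 CPM in Myrf-kd, against 24.1 ± 7.03 CPM in WT (SD, n = 3 each), a fitted ratio of 1.38 with a 95% interval from 0.896 to 2.12 (edgeR adjusted p = 0.703). Of its relatives, Nr4a2 averaged 8.75 ± 2.68 CPM in Myrf-kd, against 8.54 ± 1.04 CPM in WT (edgeR adjusted p = 0.977). Nr4a3, below the level for testing, was listed at 0.663, 0.536 and 1.02 FPKM in the Myrf-kd libraries 1, 2 and 3, against 0.534, 0.313 and 0.373 FPKM in the WT libraries 1, 2 and 3. In FPKM each Myrf-kd library of Nr4a3 lay above every WT library, but Myrf-kd 2, at 0.536, barely exceeded WT 1, at 0.534. Before scaling to depth, Nr4a3 held 231 units in Myrf-kd 2 and 238 units in WT 1, so the groups are not clearly apart. In the 2 alternatives with a lower filter or none the edgeR adjusted p of Nr4a3 was 0.718 to 0.759.

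Npas4 and Arc mark excitation of neurons. Npas4 (ENSMUSG00000045903, chromosome 19, 4984355 to 4990316, minus strand) encodes a factor that answers calcium entry and shapes inhibitory synapses. It was at 6.12, 8.55 and 9.71 CPM in the Myrf-kd libraries 1, 2 and 3, against 8.72, 5.003 and 3.10 CPM in the WT libraries 1, 2 and 3. WT 1 lay within the Myrf-kd range and WT 3 was the lowest, so the groups overlapped. The fitted ratio was 1.45 with a 95% interval from 0.776 to 2.71 (edgeR adjusted p = 0.741), and the log2 fold change of 0.54 lay between 0.24 and 1.01 over the alternatives. Arc (ENSMUSG00000022602, chromosome 15, 74669083 to 74672570, minus strand) encodes a cytoskeletal protein of active synapses. It was at 0.552, 0.410 and 0.304 FPKM in the Myrf-kd libraries 1, 2 and 3, against 0.578, 0.371 and 0.432 FPKM in the WT libraries 1, 2 and 3, on 17 to 33 fragments per library. Arc was lowest in Myrf-kd 3, the library in which Npas4 was highest, and its groups overlapped.

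Ier2, Dusp1 and Junb had the narrowest ranges of the 10 genes, with less than 1.5-fold between their highest and lowest libraries. Ier2 (ENSMUSG00000053560, chromosome 8, 84661331 to 84662852, minus strand), which encodes a small nuclear protein, was at 10.5, 8.99 and 13.3 CPM in the Myrf-kd libraries 1, 2 and 3, against 9.34, 10.8 and 9.81 CPM in the WT libraries 1, 2 and 3. The groups overlapped, with both the highest and the lowest library in Myrf-kd. The fitted ratio was 1.09 with a 95% interval from 0.831 to 1.44 (edgeR adjusted p = 0.846). Dusp1 (ENSMUSG00000024190, chromosome 17, 26505590 to 26562128, minus strand) was at 15.0, 13.6 and 16.3 CPM in the Myrf-kd libraries 1, 2 and 3, against 19.5, 14.4 and 14.1 CPM in the WT libraries 1, 2 and 3. The highest library was WT 1 and the groups overlapped. The fitted ratio was 0.934 with a 95% interval from 0.722 to 1.21 (edgeR adjusted p = 0.877).

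Per length, Jun was the most abundant of the 10 transcripts at 22.3 ± 6.96 FPKM over the 6 libraries (SD). Fos followed at 7.49 ± 3.73, Nr4a1 at 7.01 ± 2.10, Ier2 at 5.90 ± 0.866, Egr1 at 4.03 ± 1.74, Dusp1 at 4.01 ± 0.588 and Junb at 3.73 ± 0.485 FPKM. Each of these overlapped with its neighbour in the order over the libraries. Npas4, at 1.43 ± 0.543 FPKM, lay apart from Junb above it and from Arc below it, and Arc and Fosb, at 0.441 ± 0.105 and 0.440 ± 0.132 FPKM, were not separated. The ratio of Fos to Jun in FPKM, a pair chosen after the values were seen, was 0.316, 0.411 and 1.12 in the Myrf-kd libraries 1, 2 and 3, against 0.354, 0.188 and 0.105 in WT 1, 2 and 3. Fos exceeded Jun in Myrf-kd 3 alone.

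**Figure D3:**
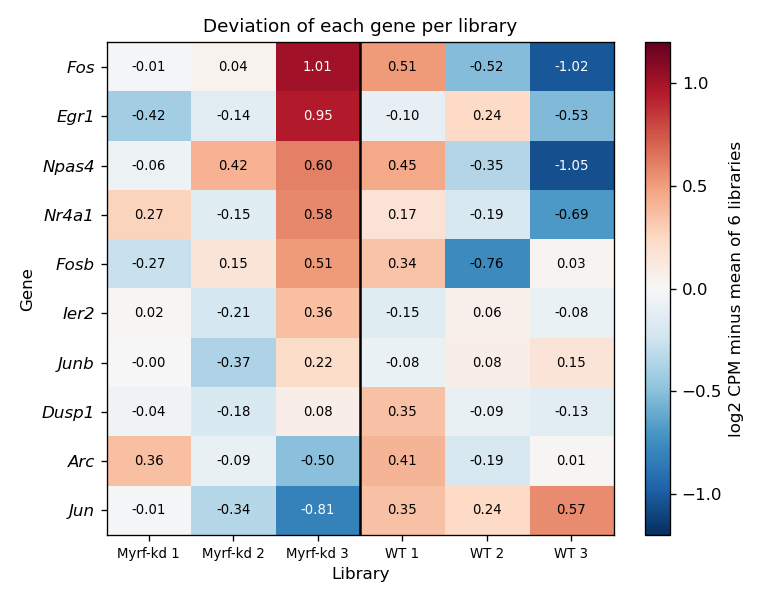
Deviation of each gene (rows) from its own mean over the 6 libraries (columns, Myrf-kd left of the line and WT right), in log2 CPM; red is above and blue below the mean. Fos runs between 1.01 in Myrf-kd 3 and −1.02 in WT 3, and Jun between −0.81 and 0.57 in the same libraries.

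The 10 genes did not move as 1 group over the libraries. Myrf-kd 3 was the highest library for 7 of them, Fos, Fosb, Egr1, Nr4a1, Npas4, Ier2 and Junb, while it was the highest for 25.7% of all genes tested. It was the lowest for Jun and Arc, and Dusp1 lay in between. WT 3 was the lowest library for Fos, Egr1, Nr4a1 and Npas4, and the highest for Jun. Jun supplied 20.6% to 41.1% of the summed level of the 10 genes in Myrf-kd and 43.8% to 58.7% in WT. The sum was 190.9, 167.9 and 218 CPM in the Myrf-kd libraries 1, 2 and 3, against 229, 197.4 and 199.4 CPM in the WT libraries 1, 2 and 3, so it overlapped. It hid the opposite deviations of Fos and Jun in Myrf-kd 3 and WT 3. In WT 1 both genes lay above their own means, by 0.51 for Fos and 0.35 for Jun in log2 CPM. Lens genes were also highest in Myrf-kd 3. All 10 of that list were detected, with sums of 1.95, 0.877 and 66.7 CPM in the Myrf-kd libraries 1, 2 and 3, against 15.8 to 26.0 CPM in WT. The part of lens tissue in the levels of Myrf-kd 3 was not tested. With sex as a covariate the log2 fold change was 0.60 for Fos, 0.24 for Egr1, 0.47 for Nr4a1 and 0.60 for Npas4, beside 0.63, 0.36, 0.46 and 0.54 without it.

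The genes differed in their spread between replicates. The SD of log2 CPM within groups was 0.68 for Fos, 0.58 for both Egr1 and Npas4, 0.40 for Nr4a1 and 0.31 for Jun. It was 0.22 for Junb and 0.21 for both Ier2 and Dusp1. The median over the 8 tested genes was 0.356, against 0.147 over all genes tested. Among tested genes whose level lay within a factor of 2, Fos exceeded 97% in spread, Egr1 95.9%, Npas4 93.2%, and Nr4a1 and Jun 92.9% each. Dusp1, Junb and Ier2 exceeded 66.4%, 61.7% and 60.2%. Without Myrf-kd 3 the median over the 8 genes was 0.279 and that over all genes 0.123.

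**Figure D4:**
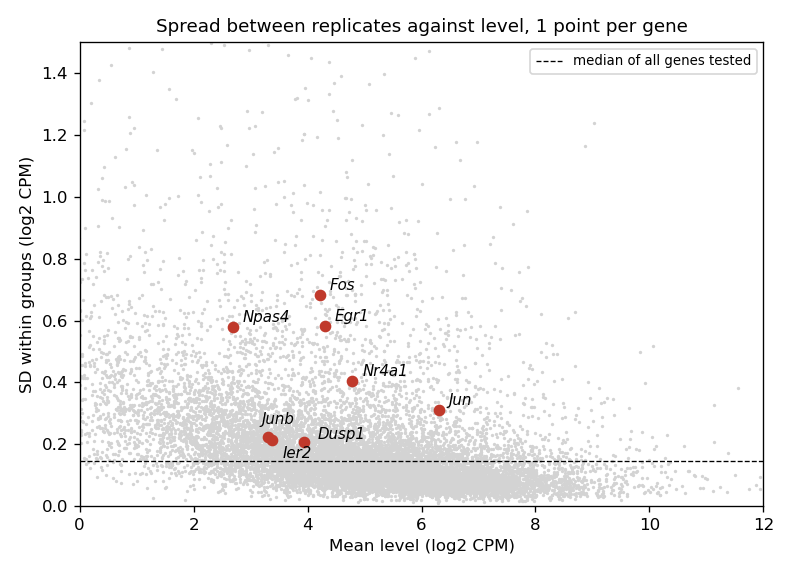
SD of log2 CPM within groups (vertical axis) against the mean level in log2 CPM (horizontal axis), 1 grey point per gene tested and red points for the 8 tested immediate early genes; the dashed line is the median over all genes, and 119 genes lie above the axis and 517 beyond its sides. Fos, Egr1, Npas4, Nr4a1 and Jun lie well above the line, at 0.31 to 0.68, and Junb, Ier2 and Dusp1 close to it.

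Of 50 further immediate early genes from a list, 35 were tested, and by edgeR 0 passed at an adjusted p under 0.05. DESeq2 and limma called 0 of them as well. An unadjusted p under 0.05 by edgeR was reached by 8, 1 of them higher and 7 lower in Myrf-kd, beside 3.76% higher and 3.73% lower of all genes tested. With Myrf-kd 2 left out 4 genes reached it, and with either WT 2 or WT 3 left out 3 did. The count over all genes fell as well, from 1024 to 737, 563 and 523 without Myrf-kd 2, WT 2 and WT 3. The summed level of the 50 genes was 1009 to 1116 CPM in Myrf-kd, against 1132 to 1158 CPM in WT, so the sums did not overlap. The estimates were higher for 15 and lower for 20, and their median was −0.09 on the log2 scale. The 3 genes with the smallest p were in order Jund, Klf10 and Mcl1, all with a lower estimate. Jund, the Jun relative that is expressed without stimulation, was at 32.4, 30.3 and 28.0 CPM in the Myrf-kd libraries 1, 2 and 3, against 35.5, 38.5 and 41.3 CPM in the WT libraries 1, 2 and 3. As with Jun, the Myrf-kd libraries lay below the WT libraries (log2 fold change −0.35 ± 0.10 SE, edgeR adjusted p = 0.666).

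Klf10, a zinc finger gene answering TGF-beta, averaged 10.3 ± 1.14 CPM in Myrf-kd, against 13.6 ± 0.835 CPM in WT. Mcl1, which encodes a short-lived survival protein of the Bcl-2 family, averaged 110.5 ± 2.54 CPM in Myrf-kd, against 131 ± 11.5 CPM in WT. Cebpd, a factor of inflammatory signalling, averaged 4.07 ± 0.784 CPM in Myrf-kd, against 5.79 ± 0.192 CPM in WT. The groups of these 3 genes did not overlap, and their adjusted p was 0.666 by edgeR. Of the 35 genes, 8 lay below WT without overlap and 1, Rgs2, above it, named after its values were seen (beside 7.5% below and 7.13% above of all genes tested).

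Among the 8 below WT was Atf3, a stress factor that pairs with Jun, named here after its values were seen. It was at 34.5, 27.7 and 7.32 CPM in the Myrf-kd libraries 1, 2 and 3, against 46.5, 40.6 and 44.7 CPM in the WT libraries 1, 2 and 3. Like Jun it was lowest in Myrf-kd 3, and its fitted log2 fold change was −0.92 ± 0.49 SE (edgeR adjusted p = 0.697). Without Myrf-kd 3 the estimate became −0.50. Rgs2, which encodes a brake on G protein signalling, averaged 31.2 ± 3.38 CPM in Myrf-kd, against 25.5 ± 1.503 CPM in WT (edgeR adjusted p = 0.666). Bdnf, a neurotrophin gene also chosen after its values were seen, lay just under the level for testing at a mean of 0.992 FPKM. It was listed at 1.10, 1.27 and 1.33 FPKM in the Myrf-kd libraries 1, 2 and 3, against 0.895, 0.771 and 0.590 FPKM in the WT libraries 1, 2 and 3, and its adjusted p lay between 0.542 and 0.922 in the 5 alternatives that tested it.

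**Figure D5:**
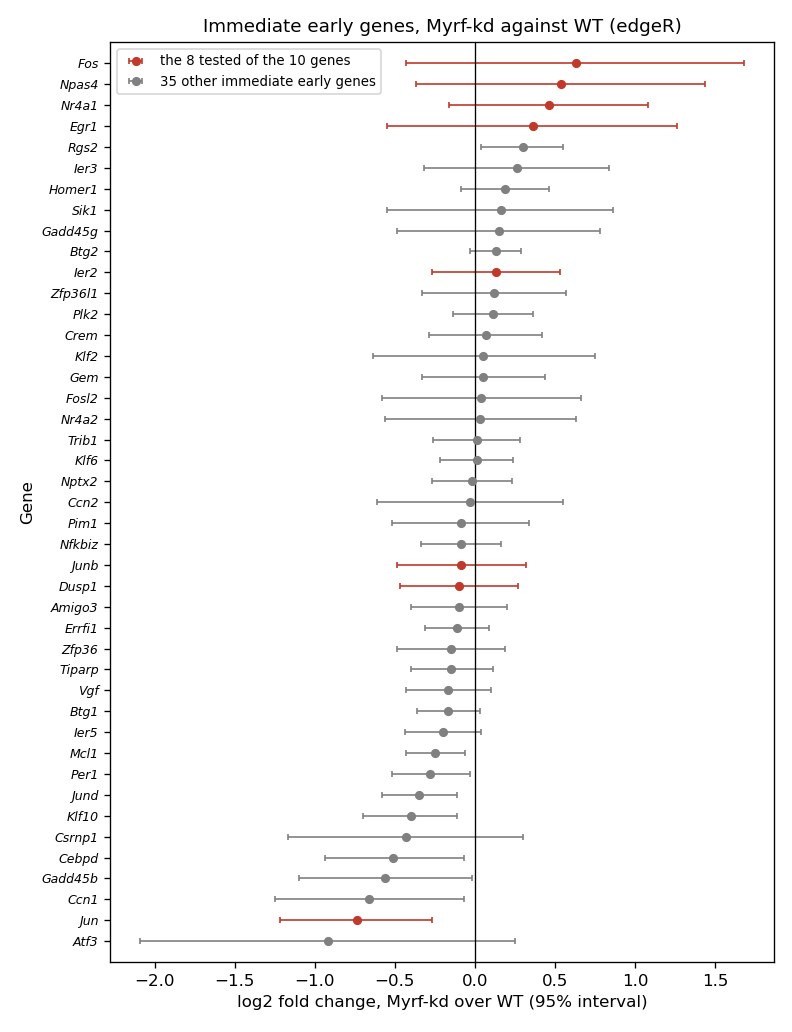
Fitted log2 fold change of Myrf-kd over WT (points) with 95% intervals (lines) by edgeR for the 8 tested genes of the 10 (red) and 35 other immediate early genes (grey), ordered by estimate. Fos is at the top at 0.63 with an interval across 0, and Jun, at −0.74, and Atf3, at −0.92, are at the bottom.

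No gene of the regulator lists below passed with all libraries in the fit, which does not show that their levels were unchanged. Of 6 genes of SRF and its partners, 2 had higher and 4 lower estimates and 0 passed by edgeR, DESeq2 or limma. By edgeR 0 reached an unadjusted p under 0.05, beside 7.49% of all genes tested. With WT 1 left out 1 did. Srf averaged 15.6 ± 2.38 CPM in Myrf-kd, against 14.0 ± 1.27 CPM in WT. Elk4, a ternary complex factor, averaged 42.5 ± 2.80 CPM in Myrf-kd, against 48.8 ± 6.12 CPM in WT, Elk1, another such factor, 61.5 ± 1.33 CPM in Myrf-kd, against 63.3 ± 2.86 CPM in WT, and Mrtfa, an actin-regulated SRF partner, 24.3 ± 5.91 CPM in Myrf-kd, against 30.3 ± 2.66 CPM in WT. The Mrtfa libraries of Myrf-kd lay below those of WT. It was the only gene of the 6 without overlap, beside 14.6% of all genes tested.

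Of 13 CREB and MEF2 regulators, 6 had higher and 7 lower estimates and 0 passed by edgeR, DESeq2 or limma (2 at an unadjusted p under 0.05 by edgeR, Crtc3 and Mef2a). That count was 3 with Myrf-kd 1 left out, 1 with WT 1 left out and 0 with any of Myrf-kd 2, WT 2 or WT 3 left out. With every library, 7.49% of all genes tested (1024) reached an unadjusted p under 0.05 by edgeR. Across all genes, the count was 1264 and 1187 without Myrf-kd 1 and WT 1. It fell to 737, 563 and 523 without Myrf-kd 2, WT 2 and WT 3. Crtc3, a CREB coactivator, averaged 65.4 ± 7.18 CPM in Myrf-kd, against 79.1 ± 6.55 CPM in WT. Mef2a averaged 112.5 ± 13.3 CPM in Myrf-kd, against 131.7 ± 2.89 CPM in WT. Mef2d, the MEF2 factor known for its role in photoreceptors, was at 210.3, 190.1 and 574 CPM in the Myrf-kd libraries 1, 2 and 3, against 569.3, 660 and 592.9 CPM in the WT libraries 1, 2 and 3. Myrf-kd 3 lay within the WT range, the other Myrf-kd libraries lay far below it, and without Myrf-kd 3 Mef2d passed (log2 fold change −1.60, edgeR adjusted p = 0.0104, against −0.90 and 0.685 with it). Camk2a, a calcium-dependent kinase gene, averaged 37.8 ± 3.14 CPM in Myrf-kd, against 32.6 ± 2.70 CPM in WT.

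Of 30 genes of the MAP kinase cascade and its phosphatases, 29 were tested, 14 with higher and 15 with lower estimates, and 0 passed by edgeR, DESeq2 or limma (2 at an unadjusted p under 0.05 by edgeR, among them Dusp8). That count was 5 with Myrf-kd 1 or WT 1 left out, and 1 with Myrf-kd 3, WT 2 or WT 3 left out. Over all genes tested 7.49% reached it with every library, a count of 1024. That count over all genes was 1264 and 1187 without Myrf-kd 1 and WT 1. It was 888, 563 and 523 without Myrf-kd 3, WT 2 and WT 3. The sum of the 30 genes was 2189 to 2300 CPM in Myrf-kd, against 2337 to 2400 CPM in WT, and did not overlap. The median log2 fold change of the 29 tested genes was −0.0, so the sum does not describe the typical gene of the list. Dusp8, a phosphatase of stress kinases and a relative of Dusp1, was at 248.4, 210.4 and 179.9 CPM in the Myrf-kd libraries 1, 2 and 3, against 261.8, 302.9 and 300.2 CPM in the WT libraries 1, 2 and 3. Its Myrf-kd libraries lay below the WT libraries (log2 fold change −0.44 ± 0.12 SE, edgeR adjusted p = 0.666). Dusp5, which acts on ERK, was at 16.7, 17.0 and 26.8 CPM in the Myrf-kd libraries 1, 2 and 3, against 15.9, 15.1 and 14.8 CPM in the WT libraries 1, 2 and 3, so its Myrf-kd libraries lay above the WT libraries, with Myrf-kd 3 highest as for Fos and Egr1. Of the 29 tested genes, Dusp8 alone lay below WT without overlap and Dusp5 alone above it. Among all genes tested, 7.5% lay below and 7.13% above. Dusp16, which acts on JNK, averaged 47.2 ± 5.45 CPM in Myrf-kd, against 54.7 ± 5.51 CPM in WT.

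Heat shock genes, which handling of tissue can also induce, had 9 higher and 4 lower estimates of 13, and 0 passed by edgeR, DESeq2 or limma. An unadjusted p under 0.05 by edgeR was reached by 0, beside 7.49% of all genes tested. Hspa1a was at 36.0, 35.5 and 53.6 CPM in the Myrf-kd libraries 1, 2 and 3, against 31.7, 36.4 and 28.9 CPM in the WT libraries 1, 2 and 3, highest in Myrf-kd 3 as were Fos and Egr1. The sum over the list was 2731 to 2962 CPM in Myrf-kd, against 2475 to 3267 CPM in WT, so it overlapped. Hspd1 averaged 158.6 ± 6.401 CPM in Myrf-kd, against 148.8 ± 5.83 CPM in WT, Hsph1 105.8 ± 12.3 CPM in Myrf-kd, against 119 ± 17.7 CPM in WT, and Cryab 22.05 ± 6.80 CPM in Myrf-kd, against 18.1 ± 3.50 CPM in WT. Hspd1 and Cryab were also highest in Myrf-kd 3, while Hsph1 was lowest there, at 93.5 CPM. The part of tissue handling in these levels was not tested.

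The genes whose course over the 6 libraries was most like the mean course of the 8 tested genes were Iqck, Tmem184b, Smim26, Zfyve21 and Zfp932. Likeness was the root mean square difference of centred log2 CPM, which was 0.034 for Iqck and 0.071 for Zfp932. The mean course itself lay at −0.03, −0.11 and 0.37 in the Myrf-kd libraries 1, 2 and 3, against 0.19, −0.07 and −0.35 in WT 1, 2 and 3, a smaller range than that of Fos alone.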

How the data were processed

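Retinal RNA was measured in 3 Myrf-kd and 3 WT samples, grouped by sample title. The submitters' processing notes name Bowtie 0.12.2, HISAT2 2.0, StringTie 1.3.0 and GRCm38, with no role or order; how strand was handled is not stated there. The authors deposited FPKM values and whole-number counts per gene, read here as estimated counts because they follow FPKM times length. About 4 units make 1 fragment, since 4 is the most common low value. Members and lists were chosen with earlier results of these data known.

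The 13673 genes averaging at least 1 FPKM were tested on the counts with edgeR 4.0.16 (quasi-likelihood, TMM, genotype as the only term, Benjamini-Hochberg over all genes, threshold 0.05). The SE is the fold change over the root of F. SDs of log2 CPM use a prior count of 2. limma 3.58.1 and DESeq2 1.42.0 were alternatives. Library pairs within a group differed beyond sampling noise (chi-square per degree of freedom at least 15.3). The scripts were tested on simulated data. Named genes are the 10 members, up to 4 genes per pathway list by smallest p, and the 5 most alike in course (1 gene the rule names is not reported here); others are said to be chosen after their values were seen or belong to a member's family. Intervals cover 95%.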

Additional observations from a re-analysis of the deposited data

How the results depend on the processing

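None of the 8 tested genes passed under any alternative other than DESeq2, where Jun passed (1 gene, adjusted p = 0.0394), and that test called 53 genes in all against 6 by edgeR. Blocking on the replicate number left 0 genes past the threshold in all, while 702 reached an unadjusted p under 0.05 by edgeR. Same-numbered libraries correlated in their deviations at −0.042, 0.082 and 0.14, and differently numbered ones at −0.14 to 0.088. With 3 libraries per group, this check cannot decide whether the numbers pair the samples. With a library left out the count over all genes lay between 9 and 16. The number of the 8 tested genes with a higher estimate was 3 to 6 under these omissions (3 without Myrf-kd 3). Over these omissions the log2 fold change of Junb lay between −0.227 and 0.057 (positive without Myrf-kd 2), of Egr1 between −0.178 and 0.604 and of Ier2 between −0.036 and 0.253 (both negative without Myrf-kd 3), and of Dusp1 between −0.184 and 0.069 (positive without WT 1). None of these genes passed, and the cause was not tested. Fos, Npas4, Nr4a1 and Jun kept their direction in all 15 alternatives. Fosb and Arc were tested in 2 alternatives alone, those with a lower filter or none, and did not pass. They rest on as few as 23 and 17 fragments in a library.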

Other observations

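Maff, an immediate early gene of the small Maf family, lay below the level for testing, and its deposited values were 1.67, 0.0785 and 0.373 FPKM in the Myrf-kd libraries 1, 2 and 3, against 1.004, 1.201 and 1.01 FPKM in the WT libraries 1, 2 and 3. The level of Spry4, an inhibitor of the MAP kinase cascade, was 6.65, 8.80 and 15.6 CPM in the Myrf-kd libraries 1, 2 and 3, against 10.6, 4.68 and 3.98 CPM in the WT libraries 1, 2 and 3. Both were picked after their values were seen. As for Fos, Spry4 was highest in Myrf-kd 3 and lowest in WT 3, and it did not pass (edgeR adjusted p = 0.731).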
